A study of Mus musculus with 8 samples.

Results

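The resting SMC1 sites described here were the 2271 peaks that lay at the ends of protein-coding genes and had no counterpart in the peak list of NMDA-treated neurons. They were chosen by 2 measured properties of the deposited peak lists: no base of the resting peak overlapped a peak of the NMDA list, and the peak midpoint lay within 1 kb of the start or end of a protein-coding gene in the RefSeq annotation of mouse build GRCm38.p6. They made up 2271 of the 12359 resting peaks (18.4%, exact Clopper-Pearson 95% interval 17.7 to 19.1%). The comparison set was the 639 resting peaks at protein-coding gene ends that did overlap an NMDA peak, called shared peaks below. Intervals cover counting error over peaks only.

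SMC1 chromatin immunoprecipitation followed by sequencing (ChIP-seq) had been done on wild-type cortical neurons of E16 Swiss-Webster mouse embryos at day 13 in vitro. NMDA cultures received 50 µM NMDA in the bath for 10 min and were collected after 50 min in medium without drug, and resting cultures received no treatment. Each condition had 2 ChIP and 2 input samples, which the labels call biological replicates without tying them to separate litters, and 1 list of peaks that had passed in both ChIP replicates. The protocol texts name an SMC1 antibody but call the eluted material CTCF-DNA complexes, and they describe an etoposide treatment that no label of these samples names; the samples are taken here as their labels give them. Primary cultures of embryonic cortex can hold cells other than neurons, and with no expression data the labelled cell type could not be checked against its markers here.

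SMC1 is a core subunit of cohesin, the ring-shaped complex that holds sister chromatids together and extrudes chromatin loops, also in non-dividing cells such as neurons. Cohesin moves along chromatin and is often halted where the insulator protein CTCF is bound in the right orientation. It also collects at active promoters and at the 3' ends of genes, and its subunits are needed for full induction of activity-dependent genes in neurons. NMDA opens a calcium-permeable glutamate receptor and drives that gene programme.

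The promoter stretches of 4 genes show sequence under some of the strongest of these peaks at a gene start. Those of Nr6a1 and Sh2d6, whose start peaks were also among the strongest, are not printed. Each is the 150 bases before the RefSeq start on GRCm38.p6, written along the gene's own strand and lying wholly inside its peak, with GC boxes (GGGCGG) and CCAAT boxes (CCAAT) of either strand in capitals. They belong to Slc24a3 (chr2:145167625-145167774, plus strand), which encodes a potassium-dependent sodium and calcium exchanger, to Ngdn (chr14:55015304-55015453, plus), whose product neuroguidin binds a translation initiation factor, to Col23a1 (chr11:51289770-51289919, plus), a transmembrane collagen gene, and to Steap1 (chr5:5749318-5749467, minus), a metalloreductase family gene. The Col23a1 stretch ends at a RefSeq start 241 bp inside the gene's outermost end. Over the 300-base promoter window, GC content was 80.7% at Slc24a3, 67.7% at Col23a1 and 72.3% at Steap1, and 44.3% at Ngdn, which holds the CCAAT boxes.
Slc24a3: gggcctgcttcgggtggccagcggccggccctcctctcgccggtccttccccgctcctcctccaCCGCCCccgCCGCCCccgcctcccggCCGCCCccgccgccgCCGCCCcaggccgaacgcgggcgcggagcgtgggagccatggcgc
Ngdn: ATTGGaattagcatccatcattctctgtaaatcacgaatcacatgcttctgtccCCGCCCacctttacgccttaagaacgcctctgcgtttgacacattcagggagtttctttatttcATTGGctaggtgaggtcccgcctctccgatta
Col23a1: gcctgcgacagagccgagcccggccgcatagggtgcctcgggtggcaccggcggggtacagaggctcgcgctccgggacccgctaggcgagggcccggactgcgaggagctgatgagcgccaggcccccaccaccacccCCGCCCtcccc
Steap1: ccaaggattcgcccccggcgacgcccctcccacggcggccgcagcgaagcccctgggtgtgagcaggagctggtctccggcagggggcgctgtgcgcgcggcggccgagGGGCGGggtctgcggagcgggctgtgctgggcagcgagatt

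A further 4 stretches show where the consensus of CTCF (12 bases, in capitals) fell in the strongest of these peaks whose promoter holds one. They come from Mtus2 (chr5:147957208-147957259, plus), a microtubule-associated protein gene, Tsfm (chr10:127030878-127030929, minus), a mitochondrial translation elongation factor gene, Pcp4 (chr16:96467569-96467605, plus), which encodes a regulator of calmodulin, and Nudt17 (chr3:96708561-96708597, minus), a Nudix hydrolase gene. Up to 20 bases stand on each side of the consensus, and the stretches of Pcp4 and Nudt17 stop at the listed start. A match of letters is a description and does not show that CTCF was bound.
Mtus2: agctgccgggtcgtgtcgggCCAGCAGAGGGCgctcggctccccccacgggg
Tsfm: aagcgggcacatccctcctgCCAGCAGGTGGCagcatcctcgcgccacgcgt
Pcp4: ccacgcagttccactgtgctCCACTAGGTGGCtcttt
Nudt17: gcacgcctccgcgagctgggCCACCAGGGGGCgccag

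Most resting peaks at gene ends had no NMDA counterpart. At protein-coding gene ends 2271 of 2910 resting peaks had none (78.0%, 76.5 to 79.5%). Over the whole resting list the share was 89.3% (11038 of 12359), and away from protein-coding ends it was 92.8% (8767 of 9449). These shares follow from the rule that chose the peaks and are given as a description. The NMDA list held 1684 peaks, so most resting peaks of any position had no counterpart in it. The NMDA list holds only peaks that passed the authors' limit in both replicates, so absence from it does not show that SMC1 was absent.

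The limits of the rule cut through continuous values. Just inside the 1 kb window were peaks at Ascl4 (998 bp from the gene end, peak strength 20.8), 2310033P09Rik (997.5 bp, 17.8) and Gpr84 (995.5 bp, 47.7). Just outside it were peaks at Atl2 (1001 bp, 19.4), Crim1 (1004 bp, 23.0) and Pou2f2 (1004 bp, 25.8). Strength here is the sum of the −log10 p that the authors' peak caller gave the peak in each resting replicate, and it is used within the resting list only. At the overlap limit, the closest NMDA peaks that missed a resting-only peak were 29 bp away at Irs1 (strength 45.3), 38 bp away at Dusp1 (21.6) and 55 bp away at Zbtb25 (39.4). The shortest overlaps that made a peak shared were 110 bp at Foxo3 (54.9), 269 bp at Pkmyt1 (20.1) and 288 bp at Dtx4 (26.7).

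A small group of the resting-only peaks stood right beside an NMDA peak. An NMDA peak lay within 1 kb of 35 of the 2271 and within 5 kb of 57. In 29 of the 35 the neighbouring NMDA peak overlapped another resting peak, so a shared SMC1 site lay beside the resting-only one. Irs1, the insulin receptor substrate gene, Ntrk2, the BDNF receptor gene, Gadd45b, a growth arrest and DNA damage gene, and Dusp1, a MAP kinase phosphatase gene, were among these 29. In the other 6, at Lsm2, Fbxl15, Zbtb25, Tead1, Cask and Med12l, the NMDA peak overlapped no resting peak. These names were picked after their values were seen. For the rest the nearest NMDA peak was remote: over all 2271 the median distance was 279 kb, and 518 had one within 100 kb.

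Most resting-only peaks at gene ends were modest in strength. Their median strength was 25.6 (quartiles 21.2 and 33.7, range 16.8 to 125), from medians of 13.5 in the first and 12 in the second replicate column. The shared peaks at gene ends had a median strength of 35.8, with column medians of 19.2 and 16.7, and the resting-only peaks elsewhere 30.7, with 15.0 and 14.6. An irreproducible discovery rate (IDR) of 0.01 or less, stricter than the authors' limit of 0.05, was met by 931 of the 2271 (41.0%, 39.0 to 43.1%), by 441 of the 639 shared peaks (69.0%) and by 58.1% of the resting-only peaks elsewhere. Strength may bear on whether a peak finds a counterpart, which was not tested, so these values are given without a test. The share of resting peaks that were resting-only and at a protein-coding end was 29.7% in the weakest decile of the list and 6.63% in the strongest, and 5 of the 100 strongest resting peaks were among them.

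The replicate columns ordered these peaks loosely. Across the 2271 peaks, which are not independent replicates, the Spearman correlation of the columns was 0.26, against 0.62 across the shared peaks at gene ends and 0.39 across resting-only peaks elsewhere. The resting-only peaks at ends span a narrower range of strength than the shared ones, and all had passed in both replicates, so these coefficients describe the listed peaks and do not measure how well the libraries match. The first column was the higher in 1315 peaks and the second in 956. The 2 replicates' summits lay a median of 94 bp apart in the resting-only peaks, 113 bp in the shared and 39 bp in the resting-only peaks elsewhere. With the resting-only set split into 4 equal groups by strength, the median gap was 138, 121, 98 and 49 bp from the weakest group to the strongest.

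**Figure D1:**
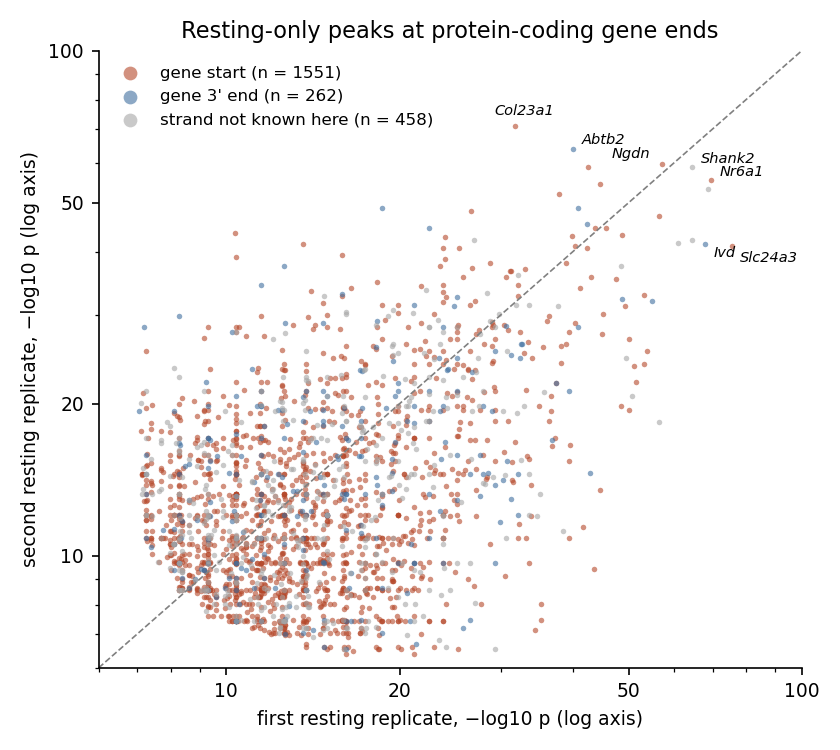
Strength of each of the 2271 resting-only peaks at protein-coding gene ends in the first (horizontal) and second (vertical) resting replicate column, as −log10 p on log axes, coloured by the kind of gene end; the dashed line marks equal values. The cloud is broad and centred near 13.5 and 12, with Nr6a1, Shank2, Ngdn and Slc24a3 at the upper right and Col23a1 far above the line.

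The strongest of these sites was at Nr6a1, which encodes the orphan nuclear receptor known as germ cell nuclear factor. Its peak (chr2:38926752-38927460) had −log10 p values of 69.5 and 55.4 in the replicate columns and lay 644.5 bp upstream of the gene start. Shank2, a scaffold gene of the postsynaptic density, had a peak of 471 bp at the high-coordinate end of the gene (chr7:144425868-144426338) with 64.5 and 58.9. Col1a1, a type I collagen chain gene, had 68.6 and 53.2 in a peak 853.5 bp from a gene end. Both columns were high in each of these 3 peaks. Strand was not known here for Shank2 and Col1a1, so their ends could not be called start or 3' end.

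Slc24a3 had 75.6 and 41.1 in a peak of 1884 bp that spanned the gene start, and Ngdn had 57.1 and 59.6 in a peak of 1312 bp over its start. Col23a1 had 31.7 and 71.1, the higher value in the second column. Steap1 had 42.6 and 58.9. Sh2d6 (56.4 and 47.1), Traf5 (44.6 and 54.6), an adaptor of tumour necrosis factor receptors, Tcf7l1 (48.7 and 43.2), a transcription factor of the Wnt pathway, Comtd1 (45.7 and 44.6), Gbp3 (37.9 and 52.1), an interferon-induced GTPase gene, and Cirbp (43.8 and 44.6), the cold-inducible RNA-binding protein gene, were the other gene starts among the 20 strongest. Within the 20, both columns were above 30 in every peak. Tbx2, a T-box transcription factor gene, had 64.5 and 42.2 and Adra1d, an alpha-1 adrenergic receptor gene, 60.9 and 41.6, at ends of unknown kind.

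Of the 20 strongest, 5 lay at 3' ends. Ivd, the isovaleryl-CoA dehydrogenase gene of leucine breakdown, had 67.8 and 41.4 at 586 bp past its 3' end (chr2:118883116-118883875). Abtb2 had 40.1 and 64.0 at 625.5 bp past its 3' end, and Rap1gap, which encodes an inactivator of the small GTPase Rap1, had 40.9 and 48.8 at 490.5 bp past. Bdh1, a ketone body enzyme gene, had 42.4 and 45.5 at 368 bp before its 3' end, and Gna15, a G protein alpha subunit gene, 54.9 and 31.9 at 496 bp before. Ivd was stronger in the first column and Abtb2 in the second.

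The 5 widest peaks ranged in strength from 33.0 at Arhgap5 to 77.0 at CK137956. Trib2, a pseudokinase gene, had a peak of 3186 bp with replicate values of 18.2 and 28.4, Arhgap5, a GTPase-activating protein gene, one of 2607 bp with 15.8 and 17.2, and Id2, an inhibitor of basic helix-loop-helix factors, one of 2571 bp with 19.6 and 16. Fzd8, a Wnt receptor gene, and CK137956 had peaks of 2566 bp each, with 50.8 and 20.7 for Fzd8 and 38.9 and 38.0 for CK137956. None of these 5 was among the 20 strongest. The median width was 823 bp in the resting-only peaks (quartiles 613 and 1118), 1163 bp in the shared peaks at ends and 582 bp in resting-only peaks elsewhere. A wider peak has more bases at which an NMDA peak can overlap it, so width is not independent of the rule and is not tested.

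A set of 5 features that the rule did not use were then compared between the resting-only and the shared peaks at gene ends. Each was given a two-sided Fisher's exact test, and Benjamini-Hochberg adjustment ran over the 5. Peaks are not replicates of a condition, so these p-values describe the 2 sets of this list and say nothing of the spread between cultures. Kinds of end and promoters were read outside chromosome 18, for which no strand was given here. There, strand was known for 1813 of 2214 resting-only peaks (81.9%) and 499 of 617 shared peaks (80.9%).

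Resting-only peaks sat at 3' ends more often than shared peaks did. The nearest end was a gene start for 1551 of 1813 resting-only peaks (85.5%, 83.8 to 87.1%) and for 484 of 499 shared peaks (97.0%, 95.1 to 98.3%). It was a 3' end for 262 (14.5%) and for 15 (3.01%). The odds ratio for a start was 0.18 (95% interval 0.11 to 0.31, Fisher's exact test, adjusted p = 3.00e-14). It was 0.12 among peaks of like strength and 0.33 among peaks of like width, both below 1 with adjusted p of 2.44e-14 and 0.000339 from stratified Mantel-Haenszel tests. Width moved with the kind of end, since 3' end peaks were narrower (below), and its part in the difference was not tested beyond these strata.

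At gene starts the resting-only peaks gathered just downstream of the start. The median midpoint lay 142 bp downstream of the start in the resting-only peaks and 189 bp downstream in the shared ones. Midpoints were within 250 bp of the start in 815 of 1551 (52.5%, 50.0 to 55.1%), against 222 of 484 (45.9%), and within 100 bp in 373 (24.0%), against 95 (19.6%). They were downstream of it in 1079 (69.6%), against 346 (71.5%). The start base itself lay inside the peaks of both replicates in 918 (59.2%), against 338 (69.8%). These positions were chosen in part by the 1 kb window and are not tested.

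The 3' end peaks showed no such gathering. Their midpoints were spread over the whole window, with quartiles at −444 bp and 530 bp relative to the 3' end, and 143 of 262 lay past it (54.6%, 48.3 to 60.7%). The 3' end was inside both replicates' peaks in 37 of 262 (14.1%). A listed RefSeq start was within 1 kb for 21 of the 262 (8.02%), so most stood at no listed start. Starts were listed for 17492 of 21900 protein-coding genes (79.9%), so this count is a minimum.

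**Figure D2:**
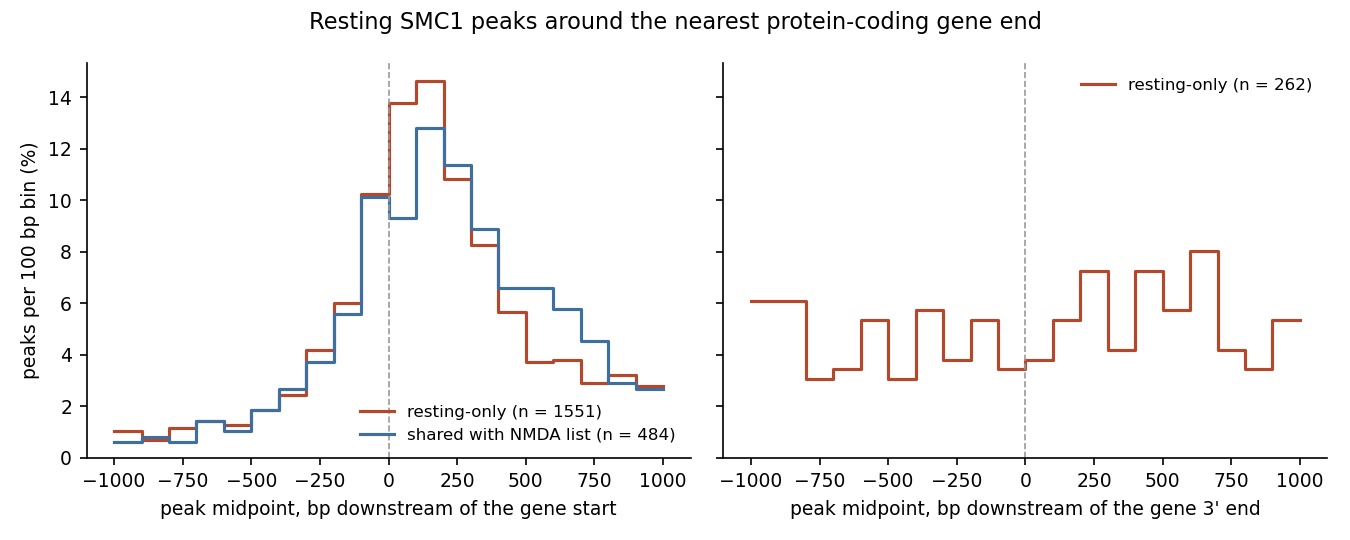
Position of resting SMC1 peak midpoints relative to the nearest protein-coding gene start (left panel, 1551 resting-only and 484 shared peaks) and 3' end (right panel, 262 resting-only peaks), as the percentage of peaks in each bin of 100 bp; positive values lie downstream in the direction of transcription. At starts both sets peak just downstream, with medians of 142 and 189 bp, while at 3' ends the bins show no peak.

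Within the resting-only set, as in the shared set (below), strength and width went with the kind of end, which is given without a test. Median strength was 29.0 at 3' ends (column medians 14.3 and 14.1) and 24.9 at starts (13.1 and 11.6), and median width was 563 bp and 880 bp. The genes concerned had median lengths of 14877.5 bp at 3' ends and 32222 bp at starts. In the same 4 groups by strength, from weakest to strongest, the nearest end was a start in 89.6%, 89.6%, 83.3% and 79.5% of peaks with known strand. Beyond those already named, the strongest 3' end peaks belonged to Frmd8 (48.7 and 32.2), Ebf1 (40.9 and 28.4), a transcription factor gene of B cells and developing neurons, Rpl22 (18.6 and 48.8), a ribosomal protein gene, and Ccl17 (22.5 and 44.6), a chemokine gene. Rpl22 and Ccl17 rested mainly on the second column. The shared peaks went the same way, with 15 at 3' ends and 484 at starts. Their median strength was 62.1 at 3' ends and 33.6 at starts, and their median width 644 bp and 1179 bp. Median gene lengths were 23208 bp and 44039.5 bp.

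Some genes carried resting-only SMC1 peaks at both ends. A peak at each end was found for 45 of the 2466 genes with a resting-only end peak, and 81 genes had 2 such peaks in all. In some cases the same peak counted for 2 genes, so the 45 are not all separate pairs of sites. Shank2 had 23.8 and 22.3 at its low-coordinate end and 64.5 and 58.9 at the other end of a gene of 447967 bp. Ngdn had 57.1 and 59.6 at its start and 8.36 and 9.04 at its 3' end. Adra1d had 11.5 and 21.2 at 1 end and 60.9 and 41.6 at the other. Peak1, a pseudokinase gene, had 47.6 and 35.4 at its start and 11.4 and 12.9 at its 3' end, Vps18, an endosomal tethering gene, 32.2 and 32.7 at its start and 11.5 and 21.2 at its 3' end. Kcnj11, a subunit gene of the ATP-sensitive potassium channel, had 27.5 and 27.4 at 1 end and 27.9 and 21.2 at the other. The ends of Kcnj11, a gene of 3830 bp, held about equal peaks, while in the other 5 genes the strength at 1 end was well above that at the other.

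Another resting peak, inside the gene or within 10 kb of it, accompanied 998 of 2271 resting-only peaks (43.9%, 41.9 to 46.0%) and 319 of 639 shared peaks (49.9%, 46.0 to 53.9%). The odds ratio was 0.79 (0.66 to 0.94, Fisher's exact test, adjusted p = 0.0132). The call was lost among peaks of like strength (0.87, Mantel-Haenszel test, adjusted p = 0.276), among peaks of like width (0.83, adjusted p = 0.0812) and at an IDR of 0.01 or less (0.79, exact test, adjusted p = 0.0822). No other resting peak was present for 1273 of the resting-only peaks (56.1%), 1 for 671, 2 for 214, and 5 or more for 13. The count runs over the whole gene, so longer genes offer more room for it. The nearest gene had a median length of 29638 bp for resting-only and 41606 bp for shared peaks. The part of gene length in the odds ratio was not tested. Long genes led this count: Thsd4 had 8 others over a gene of 555183 bp, Ntm, a cell adhesion gene, 7 over 968521 bp, and Sdk2, a synaptic adhesion gene, 6 over 290656 bp, names chosen after their values were seen.

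Peaks close to several genes were a minority in both sets. Protein-coding genes within 1 kb of the midpoint numbered 2 or more for 272 of 2271 resting-only peaks (12%, 10.7 to 13.4%) and for 61 of 639 shared peaks (9.55%, 7.38 to 12.1%). The odds ratio was 1.29 (0.96 to 1.73, Fisher's exact test, adjusted p = 0.114), an interval that allows from a slight deficit to a clear excess. With peaks admitted up to 2 kb from an end, and genes still counted within 1 kb, it was 1.45 (adjusted p = 0.00338, exact test). The peaks so added cannot have the feature, so this value does not bear on genes within 2 kb. Of the 268 resting-only peaks with exactly 2 genes, 131 had the starts of both, on opposite strands (called divergent). A start of 1 gene and a 3' end of the other, on any strand, was called tandem, at 55 peaks. The 3' ends of both, on opposite strands (convergent), were at 19 peaks, and 54 pairs could not be oriented. Whether the peak lay between the genes was not read. Of the 61 shared peaks with 2 genes, 36 were divergent, 7 tandem and 0 convergent, and 15 could not be oriented. A long noncoding RNA gene lay within 1 kb of 337 resting-only peaks (14.8%) and 105 shared peaks (16.4%).

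CpG-rich promoters were less frequent at resting-only than at shared peaks. Promoters were the 300 bases from 250 before to 50 after the RefSeq start, called CpG-rich when GC was at least 50% and CpG pairs reached at least 0.6 of the number expected. The promoter of the nearest gene was CpG-rich for 1333 of 1813 resting-only peaks (73.5%, 71.4 to 75.5%) and 431 of 499 shared peaks (86.4%, 83.0 to 89.3%). The odds ratio was 0.44 (0.33 to 0.58, Fisher's exact test, adjusted p = 1.27e-09). It lay between 0.36 and 0.59 in 7 alternatives and passed in each. Part of this set had its peak at the 3' end, far from the promoter read. With the peaks at a listed start alone, an alternative added once the data had been seen, it was 0.46 (adjusted p = 2.79e-06, exact test), from 1167 of 1450 (80.5%) and 417 of 464 (89.9%). Over all 21263 protein-coding promoter entries 45.1% were CpG-rich. Median GC content was 64.7% at the resting-only starts, 66.7% at the shared starts and 56.3% over all entries.

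**Figure D3:**
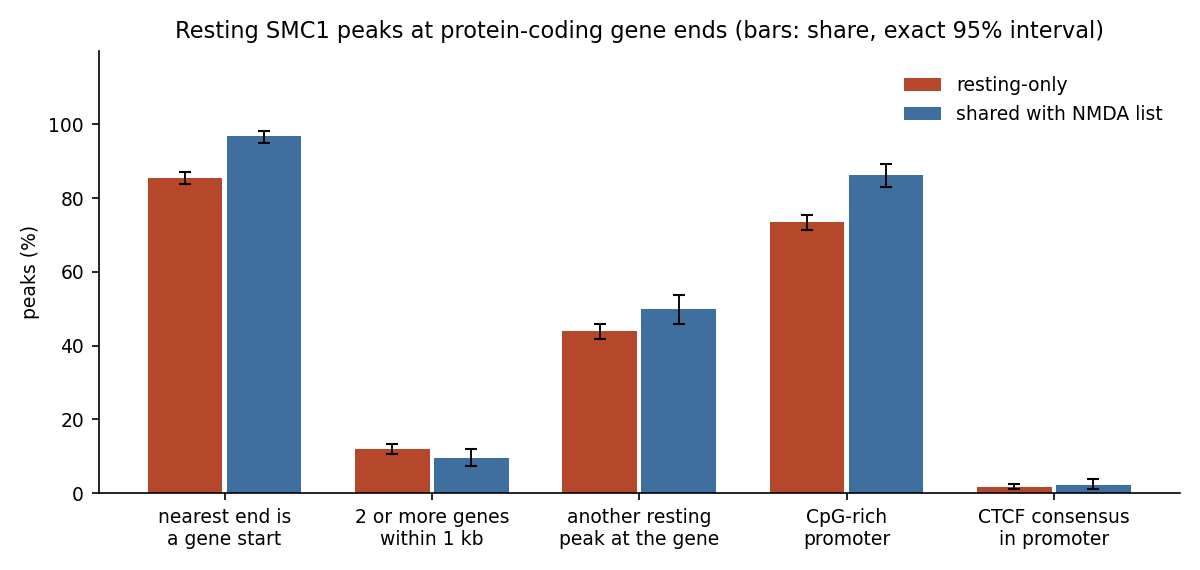
Share of resting SMC1 peaks at protein-coding gene ends with each of the 5 features tested, for resting-only peaks (left bar of each pair) and shared peaks (right bar), in percent; error bars are exact 95% intervals over peaks. The nearest end was a start in 85.5% and 97.0% and the promoter CpG-rich in 73.5% and 86.4%, and their intervals do not overlap, while the intervals overlap for another resting peak, for 2 or more genes within 1 kb and for the CTCF consensus.

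The CTCF consensus was rare in both sets. It was found in the promoter of 30 of 1813 resting-only peaks (1.65%, 1.12 to 2.35%) and 11 of 499 shared peaks (2.20%, 1.11 to 3.91%), on either strand. The odds ratio was 0.75 (0.37 to 1.5, Fisher's exact test, adjusted p = 0.443), so neither a lower nor a higher share could be detected at this number of matches. At listed starts alone it was in 29 of 1450 (2.00%) and 11 of 464 (2.37%), and in 0.560% of all 21263 promoter entries. Promoters that were not CpG-rich held it in 14 of 283 resting-only cases (4.95%, 2.73 to 8.16%) and in 0 of 47 shared cases (upper bound 7.55%), against 0.446% of all 11663 such entries. CpG-rich promoters held it in 1.29% and 2.64%, against 0.698% of all such entries. No match says only that these letters are absent from the 300 bases read, which cover part of most peaks.

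The consensus lay close to the point of highest signal. In all 29 resting-only peaks with the consensus at a listed start it fell inside the peak, and in 22 of the 29 within 100 bp of the mean of the replicate summits (75.9%), at a median of 38 bp. In the 11 shared peaks the median was 55 bp, with 8 within 100 bp. The sequences printed above for Mtus2, Tsfm, Pcp4 and Nudt17 lay 14.5, 20.5, 47.5 and 3 bp from it. Mtus2 had replicate values of 43.0 and 35.7, Tsfm 50.1 and 19.4, Pcp4 40.4 and 28.9, and Nudt17 31.7 and 16.8, all stronger in the first column. Median strength was 29.5 in the 29 peaks with the consensus (columns 15.2 and 14.9) and 24.8 in the 1421 without (13 and 11.2), and median width 668 and 897 bp. Other consensus matches named after their values were seen were at Rab32 (19.7 and 22.5), a small GTPase gene, Cryz (16 and 24.7) and Tnr (20.6 and 19), the extracellular matrix gene for tenascin-R.

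Other promoter motifs lay farther from the summits. The letters searched, on both strands, were GCGCNTGCG for NRF1, CCGGAAGT for ETS factors, TGACGTCA for the cAMP response element (CRE), TGANTCA for AP-1 and AANATGGCG for YY1, beside the CCAAT and GC boxes spelled out earlier. Matches of different motifs may overlap. The closest match lay a median of 155 bp from the mean summit for ETS (96 peaks), 156 bp for NRF1 (232), 177 bp for AP-1 (50), 180 bp for YY1 (73), 186 bp for the GC box (1084), 230 bp for the CCAAT box (499) and 247 bp for CRE (52). Matches came within 100 bp of it in 13.5% (CRE) to 34.5% (NRF1) of these peaks. The distance measure was chosen after the CTCF values were seen and is not tested.

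**Figure D4:**
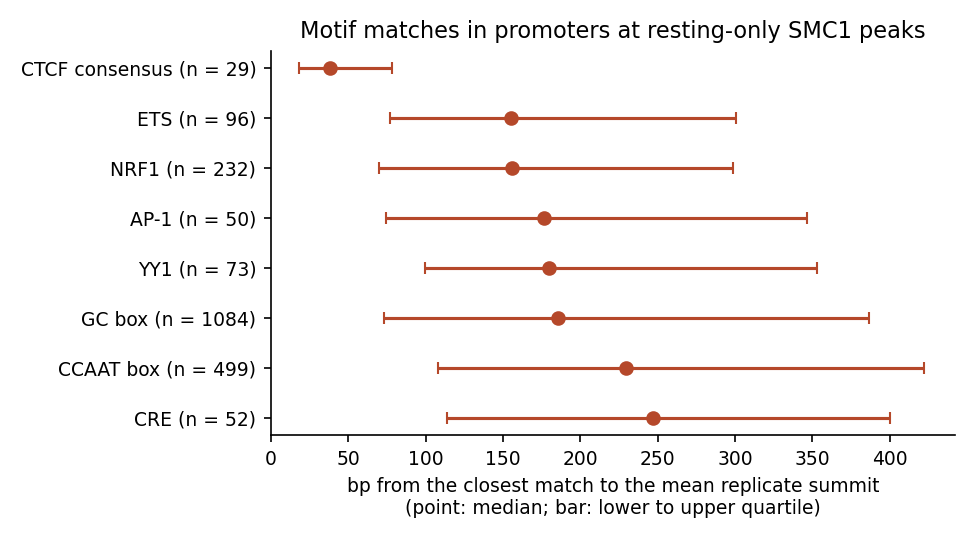
Distance in bp from the closest motif match in the promoter window to the mean of the replicate summits, for resting-only SMC1 peaks at listed gene starts (points are medians, bars run between the quartiles, n is the number of peaks with a match). The CTCF consensus stands closest, at a median of 38 bp, and the other 7 motifs have medians from 155 to 247 bp.

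The widest relative gap between resting-only and shared starts was that of YY1, a zinc finger factor that binds promoters. Its letters were in 5.03% of 1450 resting-only promoters (3.97 to 6.29%), 1.94% of 464 shared ones (0.891 to 3.65%) and 3.12% of all entries. NRF1 letters were in 16%, 15.1% and 8.61%, ETS in 6.62%, 6.47% and 5.15%, CRE in 3.59%, 3.45% and 2.23%, and the GC box in 74.8%, 77.8% and 46.2%, in the same order. AP-1 letters were in 3.45%, 2.16% and 6.99%, and CCAAT in 34.4%, 37.3% and 38.2%. CpG content moves with several of these: among CpG-rich promoters NRF1 was in 18.9% of resting-only, 16.5% of shared and 17.2% of all entries. Among them YY1 was in 5.74% of resting-only, 1.92% of shared and 5.66% of all. None of these 7 shares was tested.

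In all, 2466 of 21900 protein-coding genes had a resting-only peak at an end (11.3%), 688 had a shared one (3.14%) and 31 had both. Counts over gene lists are read against that 11.3%, and counts of shared peaks against the 3.14%. No test was run, since genes were not matched for expression or length. Each list is a selection from its class and not the whole class: Rpl22, named above, and the respiratory chain gene Ndufa6 (33.2 and 21.3) have resting-only peaks and are in no list. Of the 89 list genes with a resting-only end peak, 5 had their strongest one nearer to an end of another gene. Genes with a resting-only peak had a median length of 27.7 kb, those with a shared end peak 39.0 kb and all protein-coding genes 17.1 kb. Genes under 2 kb made up 2.27% of the first and 11.9% of all genes.

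Early response genes, the transcription factors and regulators that neuronal activity induces first, had the highest share of the 23 lists with the 1 kb window. A resting-only peak stood at an end of 13 of 26 (50.0%, 29.9 to 70.1%), and a shared end peak at 2 of 26. Over all protein-coding genes these shares were 11.3% and 3.14%. The widest and strongest were at Egr1 (2179 bp, 21.1 and 30.2), Fos (2028 bp, 18.9 and 29.2) and Fosl2 (2101 bp, 15.7 and 28.1), each higher in the second column. Gadd45b had 15.9 and 19.7. The other 9 were Nr4a3, Atf3, Klf4, Per1, Junb, Egr4, Ccn1, Dusp1 and Btg2, with strengths from 32.8 at Nr4a3 to 20.1 at Btg2. Dusp1 was counted in both the 13 and the 2: its shared end peak had a strength of 51.4, against 21.6 for the resting-only one. Klf4 and Egr4 also appear among the 45 genes with a peak at each end. At an IDR of 0.01 or less 7 of the 26 had one (26.9%), against 6 of 22 potassium channel genes (27.3%) and 4.60% of all genes. With a window of 2 kb it was 13 of 26, as for axon guidance genes, against 6 of 11 progenitor markers and 14.5% of all genes.

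Late response genes, which encode effectors of plasticity and secretion, had one in 7 of 20 (35.0%, 15.4 to 59.2%). Plk2, a kinase gene of synaptic scaling, had 29.0 and 26.0 in a peak of 2364 bp over its start, and Rasgrp1, a Ras activator gene, 13.6 and 41.4. Mylip had 12.5 and 21.7 and Sorcs3, a sorting receptor gene, 20.3 and 10.9. Plk2 was even between columns and Rasgrp1 was not. Gpr3, Vgf and Scg2 had the weakest, at strengths of 20.9, 19.4 and 18.6.

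Channel, guidance and vesicle gene lists had shares from 19% to 31.8% with the 1 kb window. Potassium channel genes had a resting-only peak in 7 of 22 (31.8%, 13.9 to 54.9%), among them Kcnk9 (19.5 and 25), a leak channel, Kcnd3 (20.9 and 22.2), an A-type channel, and Kcnq3 (19.8 and 18.3), an M-current subunit. Axon guidance genes had one in 8 of 26 (30.8%, 14.3 to 51.8%), led by the semaphorin receptor gene Plxna2 (29.0 and 29.0), Sema6a (26.7 and 19.3), the netrin receptor gene Dcc (15.0 and 22.6) and the ephrin gene Efna5 (21.6 and 11.2). Synaptic vesicle genes had one in 5 of 25 (20.0%), led by Syn2 (22.5 and 9.73), Syn3 (16 and 14.3), Syt7 (9.05 and 16.5) and Pclo (9.48 and 13.1). Calcium and sodium channel genes had one in 4 of 21 (19%), namely Scn3a (18.6 and 17.1), Cacna2d1 (10.4 and 18.3), Scn2a (9.30 and 10.5) and Cacna1i (9.30 and 8.54).

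Receptor and scaffold gene lists had shares from 10.5% to 17.4% with the 1 kb window. With 2 kb, glutamate receptor genes had one in 8 of 23 (34.8%) and postsynaptic scaffold genes in 5 of 20 (25%), against 14.5% of all genes. Calcium and sodium channel genes had one in 4 of 21 with 2 kb, so the order of these lists rests on the window. Glutamate receptor genes had a resting-only peak in 4 of 23 (17.4%, 4.95 to 38.8%): Grm4 (22.2 and 18.5), the NMDA receptor subunit gene Grin2b (21.2 and 14.5), and the AMPA receptor subunit genes Gria1 (12.8 and 12.5) and Gria4 (8.12 and 11.2). GABA and glycine receptor genes had one in 2 of 19 (10.5%), at Gabrg3 (18.4 and 18.3) and Gabbr1 (13.5 and 14.1). Postsynaptic scaffold genes had one in 3 of 20 (15.0%), the strong Shank2, Dlgap1 (32.5 and 27.7) and Homer3 (9.81 and 10.8).

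Among genes that every cell uses, ribosomal protein genes had one in 6 of 26 (23.1%), led by Rpl4 (21.9 and 14.3), whose peak lay 785 bp from its 3' end and 50 bp from the start of Snapc5, Rps19 (19.5 and 14.7) and Rpl19 (18.2 and 14.3). Proteasome genes had one in 5 of 25 (20.0%), led by Psmc6 (10.5 and 28.3) and Psmc4 (16.8 and 16.8), whose promoter also holds the CTCF consensus. Splicing factor genes had one in 4 of 27 (14.8%), aminoacyl-tRNA synthetase genes in 1 of 20 (Gars, 12 and 13.6), and respiratory chain genes in 1 of 24 (Cox5a, 12.7 and 23.3). In the cohesin and CTCF list a shared end peak stood at 3 of 15 genes, against 3.14% of all protein-coding genes. That list had a resting-only one in 1 of 15, at Pds5b (23.8 and 10.8), a regulator of cohesin release. Chromatin enzyme genes had one in 5 of 27 (18.5%), led by the histone methyltransferase gene Kmt2d (31.5 and 14), whose peak lay 637 bp from its 3' end and 476 bp from the start of Prkag1, and cortical transcription factor genes in 4 of 23 (17.4%), led by Cux2 (19.4 and 15.2) and Pou3f2 (15.9 and 17).

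Marker genes of cell types gave small counts, to be read against the 11.3% of all protein-coding genes. Pan-neuronal markers had a resting-only peak in 1 of 18, at Elavl4 (12.6 and 11.7), astrocyte markers in 3 of 11 (Sox9, Fgfr3 and Slc1a3), oligodendrocyte lineage markers in 3 of 11 (among them Cnp and Olig2) and progenitor markers in 2 of 11 (among them Eomes). Microglia markers had one in 0 of 11 and endothelial markers in 0 of 9, which with so few genes allows shares of up to 28.5% and 33.6%. At an IDR of 0.01 or less the counts were 0 of 18 for pan-neuronal and 1 of 11 for astrocyte markers. They were 0 of 11 for oligodendrocyte lineage and 1 of 11 for progenitor markers. The share of all protein-coding genes at that limit was 4.60%, so counts this small cannot be told from it. A peak at a marker gene does not show which cells held it. Among large families, chosen after the values were seen, 1 of 1110 olfactory receptor genes (0.0901%), 1 of 353 vomeronasal receptor genes and 0 of 112 keratin and keratin-associated genes had one, against 42 of 375 solute carrier genes (11.2%).

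**Figure D5:**
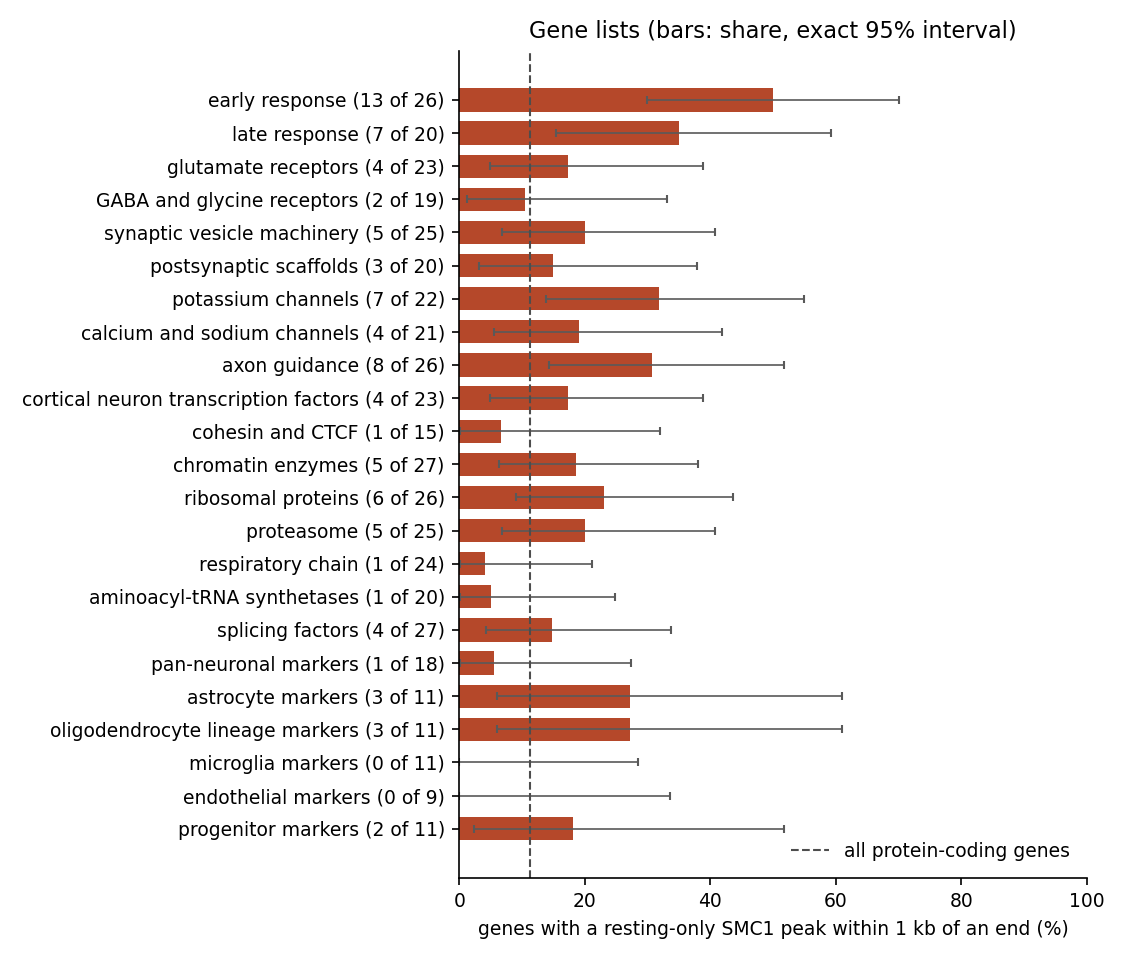
Share of the genes of each of the 23 lists that had a resting-only SMC1 peak within 1 kb of an end, in percent, with exact 95% intervals over genes; the dashed line marks the 11.3% of all protein-coding genes. Early response genes stand highest, at 13 of 26, and microglia and endothelial markers are at 0.

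The X chromosome held few of these sites. Of its 966 protein-coding genes 18 had a resting-only end peak (1.86%, 1.11 to 2.93%), against 2448 of 20665 autosomal genes (11.8%, 11.4 to 12.3%). Autosomes ranged from 8.87% on chromosome 7 to 14.8% on chromosome 1. The X chromosome held 17 resting-only end peaks and 0 shared ones, from 114 resting peaks of any position, so 14.9% of its resting peaks were of this kind, against 18.4% on autosomes. The 17 were led by Atp7a, a copper transporter gene (37.2 and 17.1), Fam90a1b (21.9 and 13.3), Nhs (17.4 and 10.8) and Ddx3x, an RNA helicase gene (18.6 and 8.54), all higher in the first column. The low count of resting peaks of any position on X moved with this result, and its part was not tested.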

How the data were processed

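SMC1 ChIP-seq peaks of resting and NMDA-treated neurons were analysed from 2 deposited lists. The tools named, per the submitters' processing notes, were MACS2, SAMtools, BWA, Trimmomatic and FastQC, with builds mm10 and GRCm38.p6; versions and parameters: not given in the sources used here. For each condition, 1 list was deposited by the authors in the IDR layout of 20 columns: the −log10 p-value of each replicate, the sum of both, the −log10 of the IDR (at or below 0.05 throughout) and an IDR score. The fields for fold enrichment and q hold a placeholder. A −log10 p grows with library depth, which is unknown from these lists, so strengths were compared within the resting list only. The replicate columns carry no replicate numbers. Input values were not used here.

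Overlap meant at least 1 bp. Gene positions came from RefSeq (GRCm38.p6, 21900 protein-coding genes), and strand and promoter sequence from a RefSeq promoter table with entries for 17492 of them (79.9%) and none on chromosome 18. No genome sequence was used, so motifs were searched in promoter windows alone. Shares have exact Clopper-Pearson 95% intervals. Fisher's exact and Mantel-Haenszel tests (within deciles of strength or width) were run with Python 3.11.15, SciPy 1.17.1, statsmodels 0.14.6 and pandas 2.3.3. Simulated data were used to test the Fisher comparison, for the gene start feature alone. The Mantel-Haenszel tests were not tried on simulated data. Alternatives changed the window, the overlap, the IDR limit and the promoters read.

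The peak set, the 23 gene lists, the motifs and the features were chosen with earlier results of these data known. Named are the 20 strongest peaks, the 5 widest, 3 on each side of the 1 kb limit, up to 6 genes with peaks at both ends, up to 4 genes per list and the genes whose sequence is printed; some genes that this rule names are not reported here. The other names, among them the remaining early and late response genes, the further 3' end peaks and the X-linked genes, were chosen after their values were seen.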

Additional observations from a re-analysis of the deposited data

How the results depend on the processing

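The number of resting-only peaks at protein-coding ends was 1655 with a window of 500 bp, 2974 with 2 kb, 2570 when any base could lie in the window, 2236 when an NMDA peak within 1 kb counted as overlap and 2284 when overlap of at least 0.5 of the shorter peak was required. It moved to 1217 with an IDR of 0.01 or less in both lists and to 931 with that limit in the resting list alone. Median strength was 12 to 13.5 with a single replicate column, since strength is the sum of both. The odds ratio for a gene start lay between 0.12 and 0.33 in 6 alternatives and that for a CpG-rich promoter between 0.36 and 0.59 in 7, with the same call in each. The odds ratio for 2 or more genes within 1 kb passed when peaks up to 2 kb from an end were admitted (1.45). Those added peaks cannot have the feature. That for another resting peak no longer passed at an IDR of 0.01 or less in the resting list (0.79), within strata of strength (0.87) and within strata of width (0.83). That for the CTCF consensus passed in none of 7. Genes of the 23 lists with a resting-only end peak numbered 89, then 68 with 500 bp, 114 with 2 kb and 46 with the stricter IDR, which leaves fewer peaks. For single lists, 47 counts stayed within 1.5 times and 22 moved further. The causes of the other changes were not tested. No paired analysis was possible because each condition had 1 list, the replicate columns carry no replicate numbers and no test ran over samples. Library depth, which limits what a list can hold, is unknown.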
